A study of Mus musculus with 19 samples.

Results

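Rps6-ps1, Gnao1, Nptx1, Tnip3, Ibsp, Rps6ka6 and Myo5b are 7 genes whose RNA was near absent or low in tumours of 1 cell line and clearly present in tumours of the other. They were taken by symbol from a table of 46983 genes, and they were chosen by their measured counts, for a near on-off difference between LDHA knockdown tumours and controls. That difference is therefore given here as a description, with no test. Nothing in the choice used the comparison of anti-CTLA-4 with IgG, so that comparison was tested.

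Polyadenylated RNA was sequenced from 19 tumours of 4T1, a mouse mammary carcinoma line, grown in BALB/cAnN mice. The study compared lines named 4T1-Sc (control) and 4T1-KD (LDHA knockdown, LDHA-KD), each given either anti-CTLA-4, an antibody that blocks an inhibitory receptor of T cells, or control IgG. For every group 1000000 cells were implanted, and 3 doses were given 3 days apart from the day that fell 3 days after implantation. The groups were control with IgG (n = 4, replicates 1, 3, 4 and 5), control with anti-CTLA-4 (n = 5), the knockdown line with IgG (n = 5) and the knockdown line with anti-CTLA-4 (n = 5). No age is given in the labels, and no label says that each replicate was a separate animal, so p-values here rest on a spread between samples that may be technical. Each kind of tumour came from a single named line, so a low level of Ldha and any other difference between the lines cannot be told apart. Whole tumours were used, in which fewer cells of a type and less RNA per cell cannot be told apart either.

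A processed pseudogene is a copy of a messenger RNA that was reverse transcribed and inserted elsewhere in the genome. Rps6-ps1 is such a copy of Rps6, which encodes a protein of the small ribosomal subunit. Gnao1 encodes the alpha subunit of Go, a heterotrimeric G protein abundant in neurons, and Nptx1 encodes neuronal pentraxin 1, a secreted protein that clusters AMPA-type glutamate receptors at synapses. Tnip3 encodes a member of the TNIP family, named for partners of the ubiquitin-editing enzyme A20, which restrains NF-κB signalling. Ibsp encodes bone sialoprotein, a matrix protein of mineralizing tissue. Rps6ka6 encodes RSK4, a member of the ribosomal S6 kinases downstream of ERK, and Myo5b encodes a motor that carries recycling endosomes to the apical side of epithelial cells. None of these functions is shared by all 7.

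Counts within genes ran from 31783272 to 43266699 per library, so the upper limit allowed by a count of 0 (3 counts) was between 0.0693 and 0.0944 CPM (counts scaled to a library of 1000000). This limit covers counting error only. Control anti-CTLA-4 replicates 3 and 5 and LDHA-KD anti-CTLA-4 replicates 3 and 5 were lowest on the second principal component, at -18.2 or below. The other libraries were at -11.6 or above. The 4 lowest are called the libraries that stood apart, but the cut is a choice. A wider gap, from -32.6 to -23.2, lies inside the set. LDHA-KD anti-CTLA-4 replicates 3 and 5 also had the largest shares of reads outside genes, 13.8% and 12.1%. Ldha itself averaged, in control tumours, 1600 ± 264 CPM (SD, n = 4) under IgG and 1910 ± 257 (n = 5) under anti-CTLA-4, against 485 ± 27.2 (n = 5) and 541 ± 38.2 (n = 5) in LDHA-KD tumours. The level remaining was 30.3% of the control under IgG (log2 fold change -1.72, edgeR quasi-likelihood adjusted p = 2.46e-09) and 28.3% under anti-CTLA-4 (-1.82, adjusted p = 6.23e-10). The targeted gene thus matched the labels in all 19 libraries, since no LDHA-KD library reached the lowest control library.

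All 7 genes separated the lines in the same complete way: the highest library of the low line lay below the lowest library of the high line. Over all 16763 genes that passed the filter on low counts, 13.7% did so, 6.69% with LDHA-KD above and 7.04% below, and nothing is read from the members' count because they were chosen for this. Rps6-ps1, Gnao1, Nptx1, Tnip3 and Ibsp were higher in LDHA-KD tumours, and Rps6ka6 and Myo5b were lower. All 7 passed the filter, Rps6-ps1 with only 9 to 24 counts in the control libraries and Gnao1 with 7 to 42. The values of each gene by library are shown in the plot of CPM by group, and they follow here gene by gene, with LDHA-KD against control as a log2 fold change, its standard error (SE) and its rank among the genes higher or lower.

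**Figure D1:**
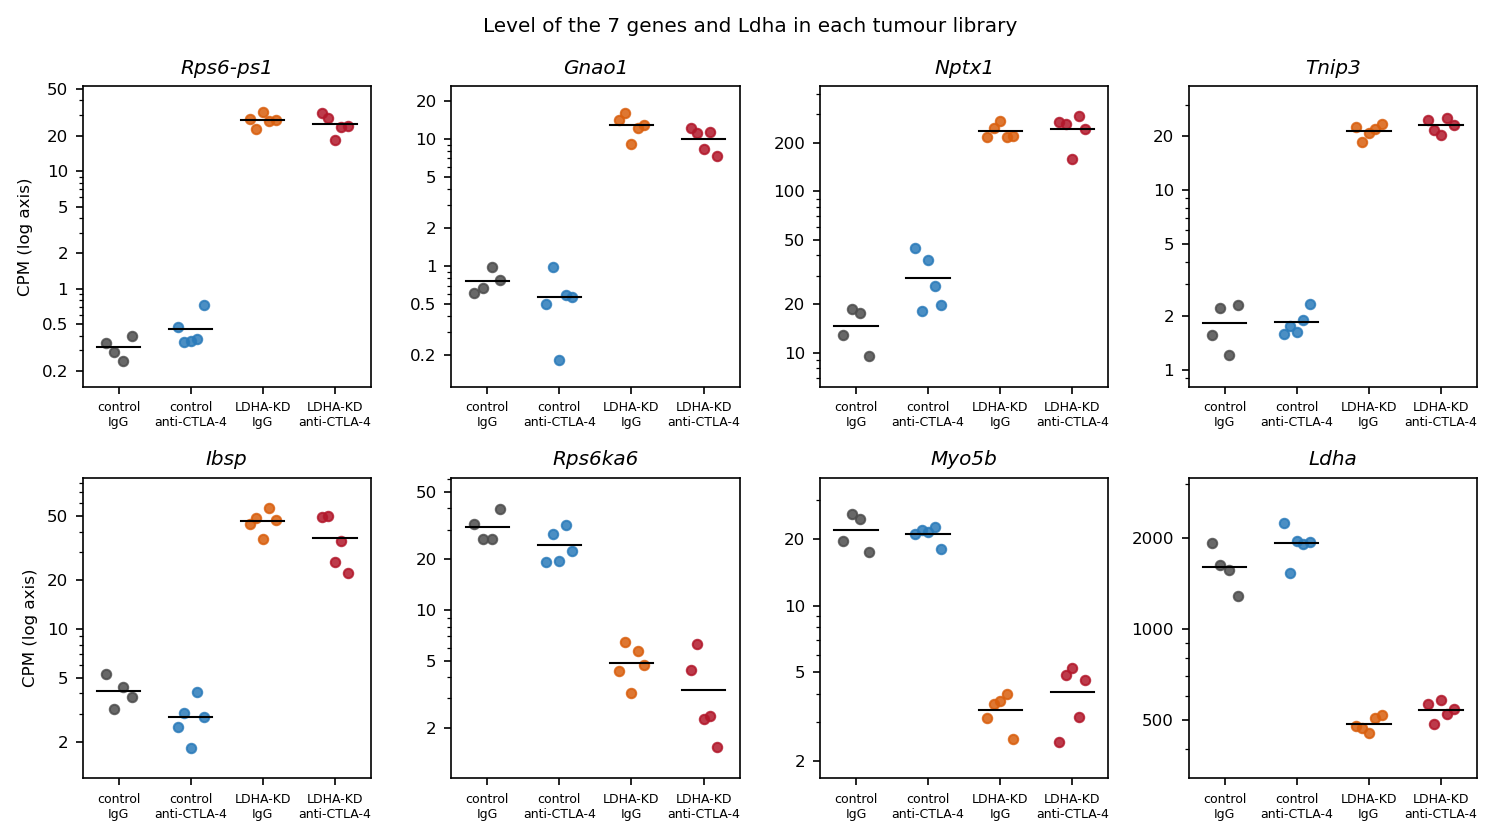
Level in CPM (log axis) of the 7 genes and of Ldha in each library, by group, with a black line at the mean of the group (n = 4 for control IgG and n = 5 for the others). Each gene's control and LDHA-KD points are separate, with Rps6-ps1 at 0.724 or below in control and 18.5 or above in LDHA-KD tumours.

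Rps6-ps1 (chr15:76337616-76338362, plus strand, GRCm38, annotated by GENCODE as a processed pseudogene with a single exon) had the widest difference. Control tumours with IgG held 0.344, 0.290, 0.243 and 0.399 CPM, and those with anti-CTLA-4 held 0.470, 0.351, 0.363, 0.375 and 0.724. LDHA-KD tumours held 27.7, 23.0, 32.0, 26.6 and 27.2 CPM with IgG, and 31.2, 28.2, 18.5, 23.7 and 24.4 with anti-CTLA-4. Every control library was thus below 1 CPM and every LDHA-KD library above 18. The log2 fold change was 6.40 (SE 0.22) under IgG, the largest of all tested genes that were higher, and 5.80 (SE 0.19) under anti-CTLA-4, the second largest. Leaving out the 4 libraries that stood apart gave 6.12 under anti-CTLA-4.

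Because Rps6-ps1 is a near copy of Rps6, the sequences show how far reads could be told apart. The 747 bases of Rps6-ps1 align without a gap to the Rps6 transcript from its base 87 on, with 14 substitutions, an identity of 98.1%. Counted from 1 at the first base of Rps6-ps1, with the base of Rps6 first, these are C111T, C159T, A209G, G221A, G273C, G293A, T294C, A297G, T335C, C378T, C426A, C444T, C565T and T723C. The stretch from position 201 to 300 holds 6 of them and is printed for both genes from the GENCODE transcripts, with the differing bases in capitals.
Rps6: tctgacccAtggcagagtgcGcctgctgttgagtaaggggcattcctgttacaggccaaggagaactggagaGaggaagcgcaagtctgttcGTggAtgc
Rps6-ps1: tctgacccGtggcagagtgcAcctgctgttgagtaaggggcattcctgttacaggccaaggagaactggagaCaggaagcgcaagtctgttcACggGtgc
Of the 698 windows of 50 bases in Rps6-ps1, 357 (51.1%) occurred in no transcript of another gene, 242 also occurred in Rps6, and 341 in at least 1 of 14 other genes. Reads aligned at more than 1 place have a summary line of their own, with 10.2% to 14.1% of records, and count in no gene. How the aligner placed reads that fit both genes is not given in the sources used here. The counts of both are uncertain to that extent.

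Rps6 itself showed no such pattern. Under IgG, the control libraries read 585, 446, 438 and 473 CPM, and the LDHA-KD libraries read 501, 490, 526, 476 and 483. The groups overlapped, and the log2 fold change was 0.03 (SE 0.11, edgeR adjusted p = 0.87). With anti-CTLA-4 it averaged 537 ± 53.6 CPM (SD, n = 5) in control and 455 ± 74.2 (n = 5) in LDHA-KD tumours, a log2 fold change of -0.24 (SE 0.11, edgeR adjusted p = 0.0761). This passed with the replicate number as a block (-0.25, edgeR adjusted p = 0.0472), and without control anti-CTLA-4 replicate 2 (0.0334) or LDHA-KD anti-CTLA-4 replicate 1 (0.0219). As a share of the Rps6 counts in the same library, the counts of Rps6-ps1 amounted to 0.0555% to 0.0844% in control tumours with IgG and 0.0668% to 0.131% with anti-CTLA-4. The share was 4.69% to 6.08% and 5.09% to 6.12% in LDHA-KD tumours. Other Rps6 pseudogenes had levels that overlapped between the lines: Rps6-ps4 averaged 6.51 ± 0.969 CPM (SD, n = 4) in control and 6.46 ± 0.162 (n = 5) in LDHA-KD tumours with IgG. Under anti-CTLA-4 it measured a log2 fold change of -0.39 (edgeR adjusted p = 0.0235), which did not pass without control anti-CTLA-4 replicate 1 or 4 or LDHA-KD anti-CTLA-4 replicate 3 or 5 (0.0559 to 0.0693). Rps6-ps3 averaged 0.237 ± 0.0710 and 0.257 ± 0.0984 CPM in the IgG groups, and Rps6-ps2 did not pass the filter, with at most 0.161 CPM in any library.

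**Figure D2:**
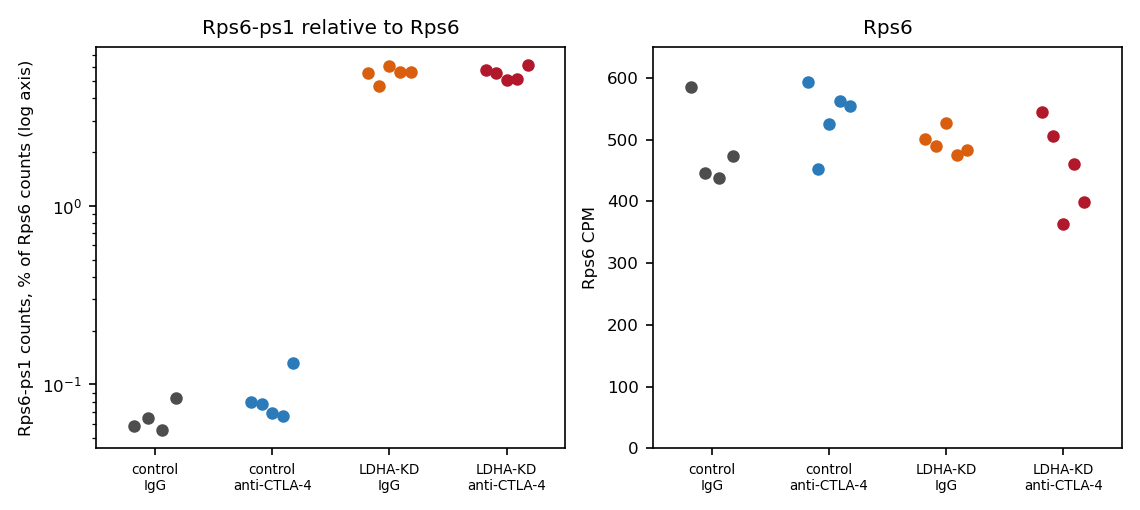
Left, counts of Rps6-ps1 as a percentage of the Rps6 counts of the same library (log axis). Right, CPM of Rps6. Points are libraries in 4 groups. The share lies at or below 0.131% in control and at or above 4.69% in LDHA-KD libraries, while the Rps6 levels of the lines overlap.

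Gnao1 (chr8:93809966-93969388, plus strand, protein coding) was below 1 CPM in all control tumours. The values were 0.609, 0.667, 0.974 and 0.770 CPM with IgG and 0.4996, 0.983, 0.182, 0.590 and 0.573 with anti-CTLA-4. The knockdown tumours read 14.1, 16.0, 9.11, 12.2 and 12.9 CPM with IgG and 12.1, 11.0, 8.295, 11.4 and 7.38 with anti-CTLA-4. The level in control tumours was 5.88% and 5.64% of that in LDHA-KD tumours under the respective treatments. The log2 fold changes were 4.08 (SE 0.30, rank 13) and 4.13 (SE 0.28, rank 5). An antisense gene and a microRNA gene overlap Gnao1, and the strand setting of the counting is not given in the sources used here. The antisense gene averaged at most 0.0207 CPM in any group and the microRNA gene was at 0 counts, so they hold few reads next to Gnao1. The promoter window of Gnao1 that RefSeq gives (250 bases before to 50 after a start at base 93810838) was 76.3% G or C and held 42 CpG dinucleotides, more than 97.0% of 32851 such windows.

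Nptx1 (chr11:119538719-119547753, minus strand, protein coding) was the most abundant of the 7 in CPM in LDHA-KD tumours and was never absent. Control tumours held 12.8, 18.5, 17.5 and 9.47 CPM with IgG, and 44.4, 17.98, 37.5, 25.8 and 19.6 with anti-CTLA-4. LDHA-KD tumours held 217.6, 245.6, 272.1, 217.5 and 220.5 CPM with IgG, and 267.8, 259.9, 157.3, 290.5 and 242.1 with anti-CTLA-4. The control groups themselves differ here, with 4 of the 5 anti-CTLA-4 tumours above every IgG tumour. The log2 fold change between the lines was 4.01 (SE 0.28, rank 16) under IgG and 3.07 (SE 0.24, rank 25) under anti-CTLA-4. The linear folds were 16.1 and 8.38.

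Tnip3 (chr6:65525313-65634040, plus strand, protein coding) was low but measurable in all control tumours. Its control values were 1.56, 2.21, 1.22 and 2.31 CPM with IgG and 1.59, 1.76, 1.64, 1.90 and 2.32 with anti-CTLA-4. Its LDHA-KD values were 22.6, 18.5, 20.9, 21.9 and 23.4 CPM with IgG and 24.7, 21.8, 20.2, 25.2 and 23.0 with anti-CTLA-4. The log2 fold changes were 3.56 (SE 0.16, rank 19) and 3.64 (SE 0.15, rank 13). The RefSeq promoter window of Tnip3 on GRCm38.p6, around a start at base 65590398, lies inside the GENCODE gene and has 0 CpG dinucleotides. It holds a match to the NF-κB consensus from base -54 to -45 before the start, on both strands, and such a match is found in 4.51% of the 32851 windows. A CCAAT follows from -31 to -27 (37.4% of windows hold CCAAT on either strand), another lies from -102 to -98, and a TATAAA lies on the minus strand from -120 to -115. The 60 bases before the start, chr6:65590338-65590397 on the plus strand, are printed to show the NF-κB match, with it and the nearer CCAAT in capitals. No measurement of binding was made in this study.
Tnip3: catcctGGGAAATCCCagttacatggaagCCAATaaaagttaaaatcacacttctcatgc

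Ibsp (chr5:104299171-104311469, plus strand, protein coding) was measurable in all control tumours, at 5.27, 3.19, 4.36 and 3.82 CPM with IgG and 2.47, 3.02, 1.84, 4.10 and 2.87 with anti-CTLA-4. It reached, in knockdown tumours, 44.8, 48.8, 36.1, 56.0 and 47.4 CPM with IgG, and 49.2, 49.95, 26.1, 35.0 and 22.1 with anti-CTLA-4. LDHA-KD anti-CTLA-4 replicates 3 and 5, which stood apart, had the lowest values of their line. The log2 fold changes were 3.48 (SE 0.26, rank 20) and 3.67 (SE 0.24, rank 11), and the latter was 3.80 without the 4 libraries. The RefSeq window around a start at base 104299287 held a TATAAA on the minus strand from -28 to -23 (13.6% of windows hold it on either strand), a CCAAT on the minus strand from -54 to -50 and a TGACGT from -79 to -74 (7.51%). It had 5 CpG dinucleotides.

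Rps6ka6 (chrX:111388192-111537959, minus strand, protein coding) went the other way. Control tumours held 32.3, 26.2, 26.4 and 39.9 CPM with IgG, and 19.3, 28.2, 19.6, 31.9 and 22.5 with anti-CTLA-4. LDHA-KD tumours held 4.34, 6.44, 3.21, 5.74 and 4.71 CPM with IgG, and 4.42, 6.32, 2.26, 2.35 and 1.54 with anti-CTLA-4. No LDHA-KD library was at the limit of detection, the lowest having 58 counts. The log2 fold changes were -2.67 (SE 0.30, rank 26 among genes that were lower) and -2.85 (SE 0.30, rank 18). RefSeq gives 2 promoter windows. The upstream one starts transcription at base 111537959, the 5′ end of the GENCODE gene. It holds TATAAA from -33 to -28 and, sharing its last base, a CCAAT on the minus strand from -28 to -24. The 60 bases before that start, chrX:111537960-111538019 read on the minus strand, are printed to show these overlapping matches, which are in capitals. TATAAA and CCAAT were found in the windows of Ibsp and Tnip3 too.
Rps6ka6: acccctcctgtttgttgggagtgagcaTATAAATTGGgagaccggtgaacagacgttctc
The second window, at base 111463497, held no match to the 7 motifs searched on both strands (TATAAA; the CCAAT box; the NF-κB consensus; TGANTCA, bound by AP-1; TGACGT, bound by CREB; ACGTG, the core bound by HIF; and TGTGGT, bound by RUNX factors). Its 16 CpG dinucleotides compare with 6 in the upstream window and a median of 7 over all windows.

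Myo5b (chr18:74440936-74771493, plus strand, protein coding) held 19.5, 25.8, 24.7 and 17.45 CPM in the control line under IgG and 21.01, 21.9, 21.5, 22.6 and 17.95 under the antibody. The knockdown tumours held 3.13, 3.59, 3.73, 4.01 and 2.50 CPM with IgG and 2.44, 4.86, 5.26, 3.14 and 4.63 with anti-CTLA-4. The log2 fold changes were -2.69 (SE 0.19, rank 24) and -2.37 (SE 0.18, rank 50), and the level remaining in LDHA-KD tumours was 15.5% and 19.4% of the control. Both genes that were lower thus kept more of their level in the low line than Rps6-ps1, Gnao1, Tnip3 and Ibsp did in theirs, where it was between 1.17% and 8.92%. An antisense gene within Myo5b averaged at most 0.0112 CPM in any group.

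Per length, in CPM per kilobase of annotated exon, the order of the levels differed between the lines. In LDHA-KD tumours with IgG, Nptx1 stood at 45.0 ± 4.61 (SD, n = 5), Rps6-ps1 at 36.6 ± 4.30 and Ibsp at 22.5 ± 3.47. They were followed by Tnip3 at 1.96 ± 0.173, Gnao1 at 1.16 ± 0.230, Rps6ka6 at 0.975 ± 0.250 and Myo5b at 0.347 ± 0.0605, and the values of Gnao1 and Rps6ka6 overlap within their spread. In control tumours with IgG, Rps6ka6 was highest at 6.22 ± 1.29 (SD, n = 4), and Nptx1 at 2.79 ± 0.807, Myo5b at 2.24 ± 0.411 and Ibsp at 2.01 ± 0.425 overlapped. Rps6-ps1 at 0.427 ± 0.0901, Tnip3 at 0.167 ± 0.0478 and Gnao1 at 0.0683 ± 0.0145 were lowest. The lengths count every annotated exon, and the long sums for Gnao1 (11053 bases) and Tnip3 (10916 bases) lower their values on this scale.

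The choice of the genes did not compare anti-CTLA-4 with IgG within a line. It did use the line difference across all 4 groups. The tests below, above all that of the interaction, may therefore not be fully independent of the choice. For none of the 7 did the treatment difference pass the threshold in control tumours, in LDHA-KD tumours, or as the interaction, the treatment difference of the knockdown line less that of the control line (0 of 7 each, edgeR). Over all genes tested 0% passed in each of these 3 comparisons, so the members' 0 is no result about them. Unadjusted p was under 0.05 for 1346, 1987 and 415 of the 16763 genes, limma voom called 0 in each, and DESeq2 called 12, 47 and 0, none of them a member. Treated and IgG libraries overlapped for all 7 in each line, where 1.27% of all genes did not overlap in control tumours and 1.38% did not in LDHA-KD tumours.

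Nptx1 had the widest treatment difference of the 7. In control tumours the mean was 14.6 ± 4.21 CPM (SD, n = 4) under IgG and 29.1 ± 11.5 (n = 5) under anti-CTLA-4, with the treated library higher in 19 of 20 pairs, and the log2 difference was 0.99 (SE 0.25, 95% interval 0.46 to 1.52). That difference did not pass (edgeR unadjusted p = 0.000756, adjusted p = 0.581, and 0.0821 to 0.999 over the alternatives tried). In LDHA-KD tumours the difference of Nptx1 was 0.05 (SE 0.22, 95% interval -0.42 to 0.52, edgeR adjusted p = 0.939). The interaction for Nptx1 was -0.94 (SE 0.33, 95% interval -1.65 to -0.24, edgeR unadjusted p = 0.0104, adjusted p = 1), so the treatment difference is not shown to differ between the lines.

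Ibsp was lower with anti-CTLA-4 in 18 of 20 pairs of control libraries, with a log2 difference of -0.54 (SE 0.26, edgeR adjusted p = 0.618), and in 17 of 25 pairs of LDHA-KD libraries (-0.35, SE 0.21, adjusted p = 0.515). Rps6ka6 had the same signs, -0.36 (SE 0.28, edgeR adjusted p = 0.743) in control and -0.54 (SE 0.29, adjusted p = 0.48) in LDHA-KD tumours. Without the 4 libraries that stood apart the LDHA-KD values shrank to -0.06 for Ibsp and -0.17 for Rps6ka6. Gnao1 measured -0.40 and -0.36 in the respective lines, and Rps6-ps1 measured 0.49 and -0.11. Tnip3 had the narrowest intervals, from -0.33 to 0.36 in control and from -0.17 to 0.37 in LDHA-KD tumours, so changes beyond about those sizes lie outside them. For Myo5b the differences were -0.06 and 0.26, with intervals of -0.44 to 0.33 and -0.13 to 0.65.

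**Figure D3:**
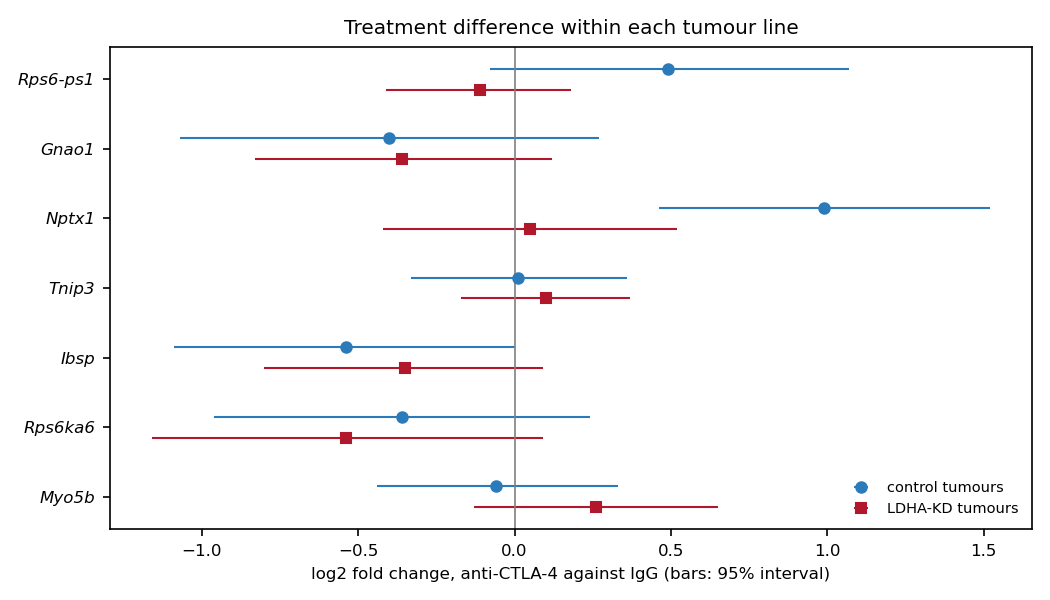
Log2 fold change of anti-CTLA-4 against IgG for each gene in control (circles) and LDHA-KD tumours (squares), with 95% intervals from the edgeR fit of all 19 libraries. The interval of Nptx1 in control tumours, 0.46 to 1.52, excludes 0 before adjustment, and that of Ibsp in control tumours ends at 0.00.

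The genes that work with each member were taken from lists of paralogs and pathway partners, 108 genes in all, of which 91 could be tested. They did not form on-off pairs with their relative. Under IgG the knockdown line was called higher for 17 and lower for 22 (42.9%), against 34.3% of all genes, 16.8% higher and 17.5% lower. Under anti-CTLA-4 it was called higher for 15 and lower for 24 (42.9%), against 40% of all genes, 20.2% higher and 19.8% lower. Their median log2 fold change was -0.05 in each comparison, against 0.00 and 0.01 over all genes, and the largest change in size was 1.97. Both comparisons use different libraries of the same lines. The sentences below give the log2 fold change under IgG first and under anti-CTLA-4 second, with edgeR's adjusted p.

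Among G protein subunits, 7 of the 25 tested rose and 1 fell under IgG, and 5 rose and 4 fell under anti-CTLA-4. Gna15, an alpha subunit of haematopoietic cells, rose from 2.81 ± 0.541 CPM (SD, n = 4) to 6.23 ± 0.257 (n = 5) with IgG, by 1.15 (adjusted p = 1.07e-06) and 1.26 (1.03e-07). Gnb4 rose by 0.85 and 0.74 (adjusted p = 2.63e-06 and 5.57e-06), and Gng2 by 0.87 and 0.72 (1.41e-05 and 4.3e-05). Gng11, a gamma subunit, fell by 0.69 in both (0.00441 and 0.0026), with adjusted p = 0.0518 under anti-CTLA-4 without the 4 libraries. The inhibitory alpha subunits closest to Go did not share its pattern. Gnai2 averaged 549 ± 91.0 CPM in control and 531 ± 36.6 in LDHA-KD tumours with IgG, and Gnai3 averaged 331 ± 25.5 and 317 ± 11.4. Gnai1 was at 3.42 ± 0.421 and 2.43 ± 0.358 CPM, with log2 differences of -0.49 (adjusted p = 0.131) and -0.77 (0.0121), and the call of the latter was lost without control anti-CTLA-4 replicate 5 (-0.43, adjusted p = 0.0548). Gnaz had 0.300 ± 0.0603 and 0.645 ± 0.155 CPM, an increase of 1.10 under IgG (adjusted p = 0.00551). Under anti-CTLA-4 it measured 0.65 (0.0492), a call lost on leaving out any of 15 libraries (adjusted p 0.0536 to 0.144).

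No pentraxin or AMPA receptor subunit tested was called higher with Nptx1. Nptxr, the membrane-bound pentraxin receptor, averaged 135 ± 24.7 CPM (n = 4) and 115 ± 15.7 (n = 5) with IgG, with log2 differences of -0.23 (adjusted p = 0.266) and -0.07 (0.739). Nptx2, the closest paralog, did not pass the filter and had at most 0.211 CPM in any library. Ptx3, a long pentraxin of inflammation, fell by 1.72 under IgG (adjusted p = 0.00374). Its -1.14 under anti-CTLA-4 (0.0254) did not pass without control anti-CTLA-4 replicate 2 or 3 or LDHA-KD anti-CTLA-4 replicate 1, 2 or 4 (adjusted p 0.0521 to 0.0667). Gria3, an AMPA receptor subunit, fell from 3.35 ± 0.889 to 1.36 ± 0.242 CPM with IgG, by 1.29 and 0.74 (adjusted p = 0.000178 and 0.00856, the latter 0.0694 without the 4 libraries). Of this list 5 of 10 genes could be tested, 3 fell under IgG and 2 under anti-CTLA-4.

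Genes of the NF-κB pathway were close to level. Of 16 tested, 2 rose and 2 fell in each comparison, and the largest change in size was 0.46. The paralogs Tnip1 (47.8 ± 8.49 and 50.8 ± 1.42 CPM with IgG) and Tnip2 (18.3 ± 2.04 and 20.1 ± 1.47) had log2 differences of 0.09 and 0.14 (adjusted p = 0.542 and 0.437). Tnfaip3, which encodes A20, measured -0.23 and 0.14 (adjusted p = 0.338 and 0.549). Traf1 rose by 0.39 and 0.32 (0.00379 and 0.00815, the latter 0.0702 without the 4 libraries). Nfkbie, an inhibitor of NF-κB, fell by 0.46 and 0.35 (0.000292 and 0.00184), and the kinase gene Chuk fell by 0.40 and 0.39 (0.000282 and 0.000175).

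Ibsp differed in direction from the other expressed members of its family. Spp1, which encodes osteopontin, was among the most abundant genes and it fell from 10700 ± 3260 CPM (SD, n = 4) to 4080 ± 1140 (n = 5) under IgG. Under anti-CTLA-4 it fell from 9430 ± 2340 (n = 5) to 3140 ± 1190 (n = 5). These were falls of 1.39 and 1.59 (adjusted p = 0.000725 and 0.000135). Dmp1, a dentin matrix protein of the same gene cluster, averaged 151 ± 22.2 and 74.1 ± 25.6 CPM with IgG, with log2 differences of -1.03 and -1.02 (adjusted p = 0.0288 and 0.0211). The first call was lost without control IgG replicate 1 or 5 or LDHA-KD IgG replicate 1, 3 or 5 (adjusted p 0.0564 to 0.0767). The second was lost without control anti-CTLA-4 replicate 2 or 4 or LDHA-KD anti-CTLA-4 replicate 3 or 4 (0.0510 to 0.0557). Runx2, a transcription factor of bone, fell by 0.70 and 0.64 (0.000142 and 0.000172). Alpl, an alkaline phosphatase, measured 0.94 under IgG (0.0444, lost without any of 9 libraries at 0.0504 to 0.146) and rose by 1.15 under anti-CTLA-4 (0.0095). Dspp and Mepe, the remaining family members, were at most 0.0794 and 0.0526 CPM in any library. Of 9 tested genes in this list, 1 rose and 6 fell under IgG, and 1 rose and 4 fell under anti-CTLA-4.

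The S6 kinases moved in both directions. Rps6ka2 (RSK3) fell from 7.74 ± 1.64 to 3.37 ± 0.719 CPM with IgG, by 1.20 and 1.09 (adjusted p = 0.00019 and 0.00025), the same sign as Rps6ka6. Rps6ka5 (MSK1) rose from 20.2 ± 5.11 to 42.8 ± 6.10 CPM, by 1.09 and 1.15 (0.000713 and 0.000206). Rps6ka3 (RSK2), the most abundant of them in CPM, was at 205 ± 6.56 and 202 ± 8.82 with IgG, Rps6ka4 (MSK2) at 63.7 ± 12.8 and 61.6 ± 3.91, and neither passed (adjusted p 0.359 to 0.87). Rps6ka1 (RSK1) measured 0.28 (0.0624) and 0.33 (0.0164), the latter at 0.0505 without control anti-CTLA-4 replicate 5. Dusp4, a phosphatase that inactivates ERK, fell by 0.84 and 0.95 (6.8e-06 and 8.66e-07). Spry2, an inhibitor of receptor signalling to ERK, measured 0.16 (0.0394, lost without any of 6 libraries at 0.0632 to 0.100) and rose by 0.29 (0.000397). In all, 2 of 18 rose and 7 fell under IgG, and 3 rose and 7 fell under anti-CTLA-4.

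Of the class V myosins, Myo5c rose while Myo5b was low. Myo5c averaged 14.9 ± 2.08 and 29.2 ± 3.31 CPM with IgG and 15.7 ± 1.03 and 23.4 ± 4.41 with anti-CTLA-4, and rose by 0.97 and 0.57 (adjusted p = 9.44e-06 and 0.000748). Myo5a measured 218 ± 34.0 and 202 ± 16.6 CPM with IgG (adjusted p = 0.447). Of the Rab proteins that bind Myo5b, the epithelial Rab25 fell from 4.20 ± 0.883 to 1.06 ± 0.453 CPM with IgG, by 1.97 and 1.32 (0.000131 and 0.00218). Rab11a averaged 183 ± 29.4 and 159 ± 10.4 CPM, with log2 differences of -0.20 (0.234) and -0.31 (0.043, lost without any of 9 libraries at 0.0510 to 0.114). Rab11fip4, a Rab11 effector, rose by 0.61 and 0.80 (0.00914 and 0.000668), and Stx3, an apical membrane fusion protein, fell by 0.67 and 0.79 (7.11e-05 and 6.82e-06). Of 15 tested, 5 rose and 3 fell under IgG, and 4 rose and 4 fell under anti-CTLA-4.

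**Figure D4:**
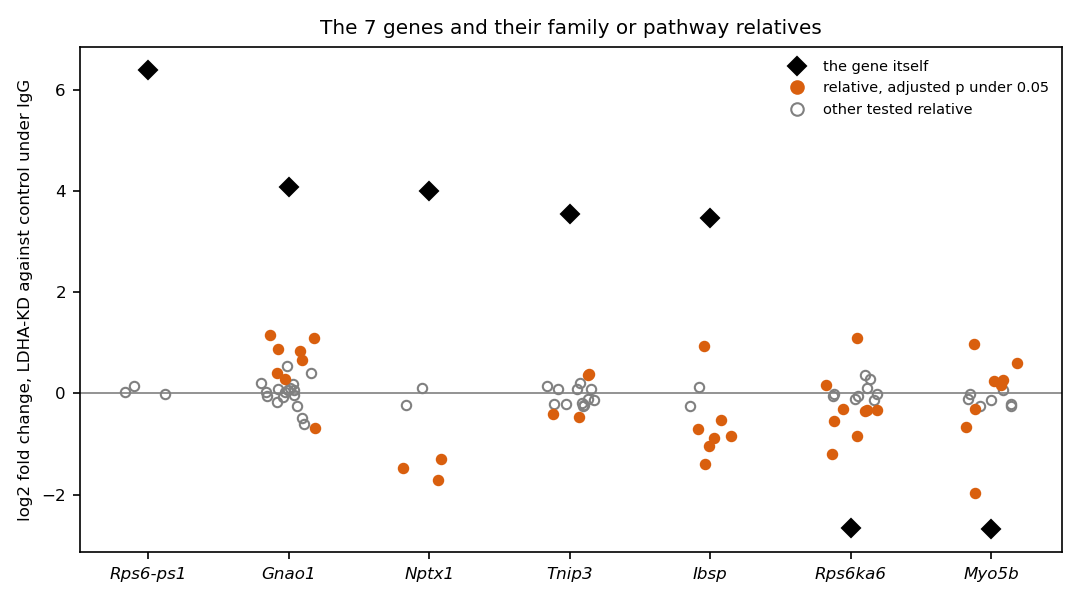
Change between the lines under IgG (log2, knockdown over control) for the 7 genes (diamonds) and their tested relatives (circles, filled where the edgeR adjusted p was under 0.05). The genes themselves lie between -2.69 and 6.40, and no relative exceeds 1.97 in size.

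Genes beside the members on their chromosomes were then examined. Within 500 kb of the 7 genes lay 196 other genes, of which 108 could be tested. Under IgG 21 were called higher and 17 lower (35.2%, against 34.3% of all genes), and under anti-CTLA-4 21 and 19 (37%, against 40%). The median was 0.10 and 0.08. Gpaa1 at 2.71 kb and Cyc1 at 5.16 kb were the nearest tested genes of Rps6-ps1, which itself measured 6.40 and 5.80. Gpaa1 measured 0.12 (adjusted p = 0.57) and 0.14 (0.439). Cyc1 measured -0.18 (0.074) and fell by 0.28 under anti-CTLA-4 (0.00382, and 0.0536 without scaling factors). Slc39a4, a zinc transporter gene 274 kb away, fell by 1.04 and 1.15 (6.35e-06 and 1.03e-06). Slc12a3, a salt transporter gene 360 kb from Gnao1, fell by 2.08 and 2.02 (0.000212 and 0.000185) while Gnao1 was higher.

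Both nearest neighbours of Nptx1 shared its sign at a far smaller size. Endov rose by 0.39 and 0.46 (adjusted p = 0.00752 and 0.00123), and Rptor by 0.27 and 0.28 (0.0224 and 0.0117). The Rptor call was at 0.0906 under IgG without control IgG replicate 1, and at 0.143 under anti-CTLA-4 without the 4 libraries. The noncoding gene Gm26888 measured 1.08 and 1.67 at 0.565 CPM or less on average (0.0171 and 0.000517). The first of these calls was lost without control IgG replicate 1 or 5 (0.0633 and 0.0619). Around Tnip3, Ndnf measured 0.05 (0.937) and 0.81 (0.056), the pseudogene RP23-325H23.3 measured -0.44 (0.442) and -0.03 (0.954), and the pseudogene Gm17147 rose by 2.04 and 1.81 (0.00584 and 0.0112) at 0.348 CPM or less on average.

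Ibsp lies between Dmp1 (85.1 kb) and Spp1 (124 kb), which were lower as given above while Ibsp was higher. None of the 12 tested neighbours of Ibsp was called higher, against 16.8% of all genes under IgG and 20.2% under anti-CTLA-4. Called lower were 6 under IgG (50%) and 4 under anti-CTLA-4 (33.3%), against 17.5% and 19.8% of all genes. Nothing is read from so few neighbours. Hdx was the only tested neighbour of Rps6ka6, with -0.77 (adjusted p = 0.0424) and -0.07 (0.858), and the first call was lost without any of 7 libraries (0.0511 to 0.131). Around Myo5b, Acaa2 at 7.70 kb measured -0.08 (0.452) and -0.27 (0.00527), the latter at 0.194 without the 4 libraries. Cfap53 measured -0.72 (0.164) and -0.38 (0.459), and Ska1 fell by 0.60 and 0.67 (0.00207 and 0.000495).

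Marker lists of cell types that express some of these genes elsewhere were read beside them. Over all tested genes 34.3% were called under IgG (16.8% higher and 17.5% lower) and 40% under anti-CTLA-4 (20.2% and 19.8%). The 12 neuron markers together amounted to 18.8 to 24.5 CPM in control and 15.4 to 20.6 in LDHA-KD tumours with IgG, nearly all of it Map2 (18.8 and 16.3 CPM on average), with 16.3 to 20.2 and 12.2 to 18.4 with anti-CTLA-4. Tubb3 averaged 0.682 to 1.05 CPM over the groups, Stmn2 0.447 to 0.81, Rbfox3 0.074 to 0.187 and Syt1 0.0411 to 0.119, and Snap25, Elavl4 and Nefm at most 0.0218. Of the 5 neuron markers that could be tested, 1 was called lower under IgG and 0 under anti-CTLA-4. Of 8 neuroendocrine markers Chga rose (1.44 and 1.53, edgeR adjusted p = 0.00569 and 0.00114), 1 of the 3 that could be tested. The median log2 fold change of the 3 was 0.74 under IgG and 0.11 under anti-CTLA-4. Under anti-CTLA-4 the largest change in size, 1.67, was a fall of another marker that was not called. The sum of that list was 1.06 to 1.71 CPM in control and 2.38 to 3.46 in LDHA-KD libraries with IgG, which did not overlap, and 2.06 to 4.68 and 3.05 to 7.22 with anti-CTLA-4, which did. Osteoblast markers, mostly Dmp1 and Runx2, amounted to 237 to 288 CPM in control and 111 to 180 in LDHA-KD libraries with IgG. With anti-CTLA-4 the sums were 163 to 232 and 97.8 to 158, and the lines overlapped under neither treatment. Of the 5 that could be tested 2 were called higher and 3 lower in both comparisons, and Bglap, Bglap2 and Sp7 averaged at most 0.0300 CPM in every group. The part of these cell types in the levels of Gnao1, Nptx1 and Ibsp was not tested.

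Marker lists of other cell types differed between the lines to varying degrees, and their part in the members' levels was not tested. The counts called stand beside 34.3% of all genes under IgG (16.8% higher and 17.5% lower) and 40% under anti-CTLA-4 (20.2% and 19.8%). The 12 epithelial markers summed to 4200 to 5490 CPM in control and 2250 to 3510 in LDHA-KD libraries, with 1 called higher and 5 lower under IgG, and 1 and 7 under anti-CTLA-4. All 10 T cell markers were called higher in LDHA-KD tumours in both comparisons, with sums of 16.9 to 36.0 and 65.9 to 105 CPM with IgG, and 34.0 to 66.7 and 87.2 to 160 with anti-CTLA-4. Macrophage markers (8 and 9 of 9 higher) summed to 1660 to 2850 and 4240 to 5070 CPM, natural killer markers (6 of 6 higher in both) to 2.89 to 7.75 and 8.88 to 24.6, and mast cell markers (7 of 7 higher in both) to 92.3 to 154 and 315 to 773. Endothelial markers were called lower for 6 of 7 under IgG, with sums of 321 to 425 and 205 to 264 CPM. Under anti-CTLA-4 it was 3 of 7 (42.9%), against 19.8% of all genes called lower, and the sums overlapped (341 to 381 and 243 to 357). Of the other lists, the counts higher and lower under IgG were 0 and 2 of 6 tested Schwann cell markers, 1 and 0 of 5 for osteoclasts, 1 and 0 of 6 for neutrophils and 2 and 0 of 4 for B cells. They were 1 and 4 of 8 for fibroblasts, 0 and 1 of 6 for muscle and 0 of 6 for adipocytes. Under anti-CTLA-4 the fibroblast counts went the other way, with 3 higher and 0 lower of 8. The counts there were 0 and 1 of 6 for Schwann cells, 1 and 0 of 5 for osteoclasts and 1 and 0 of 4 for B cells. They were 0 of 6 for neutrophils, and 0 and 1 of 6 for muscle and for adipocytes.

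Within groups, the members had a larger SD than most genes of the same mean level over all 19 libraries. They were chosen for a low level in 1 line, where counting error is larger, so the choice enters this comparison. Nothing about the members is read from it. The within-group SD of log2 CPM was 0.51 for Rps6ka6, 0.48 for Gnao1, 0.40 for Nptx1, 0.39 for Ibsp, 0.31 for Myo5b, 0.29 for Rps6-ps1 and 0.24 for Tnip3, against a median of 0.21 over all tested genes. Among genes of similar level, 97.5% had a smaller SD than Nptx1, 95.9% than Rps6ka6 and 95.5% than Ibsp, and 68.4% than Tnip3. To see whether members varied together, the group mean was subtracted from each library's log2 CPM, and Pearson's r and Spearman's rho were computed over the 19 libraries with a two-sided permutation test within groups (100000 resamples). Of the 21 pairs of members 1 passed after Benjamini-Hochberg adjustment over the 21.

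That pair was Ibsp and Rps6ka6, which differ between the lines in opposite directions. Within groups they varied together, with r = 0.82 (permutation p = 0.00024, adjusted p = 0.00504) and rho = 0.82 (permutation p = 0.00032, adjusted p = 0.00672), and r was 0.75 without the 2 libraries farthest from the median of Ibsp. Many genes varied with either: the 99th percentile of r over 12551 genes was 0.86 for Ibsp and 0.85 for Rps6ka6, both above the r of the pair. Within the 10 LDHA-KD libraries r was 0.93 (permutation p = 0.001, adjusted p = 0.021), and within the 9 control libraries it was 0.66 (permutation p = 0.0852, adjusted p = 0.436). Without the 4 libraries that stood apart r was 0.72 (permutation p = 0.00784, adjusted p = 0.0823), short of the threshold. The rho also missed it without control anti-CTLA-4 replicate 3 or 4 or LDHA-KD IgG replicate 3 (permutation, adjusted p = 0.0601, 0.115 and 0.0525). LDHA-KD anti-CTLA-4 replicates 3 and 5, with the largest shares of reads outside genes, were low in both genes, and replicates 1 and 2 of that group were high in both. The next pairs by r were Gnao1 with Ibsp (0.61), Rps6-ps1 with Tnip3 (0.58), Rps6-ps1 with Myo5b (-0.53) and Gnao1 with Rps6ka6 (0.47), and none passed (permutation, adjusted p = 0.0724 for each).

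**Figure D5:**
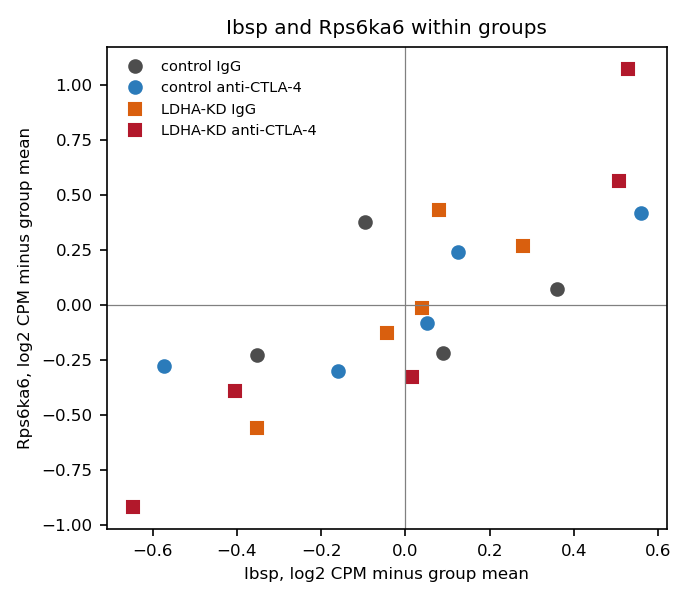
Log2 CPM of Rps6ka6 against that of Ibsp, each minus the mean of its group, for 19 libraries in 4 groups (circles control, squares LDHA-KD). The points rise together (r = 0.82), most widely among the LDHA-KD anti-CTLA-4 libraries.

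Against Ldha and the means of 5 marker lists (42 relations), 0 passed after adjustment in r or rho (unadjusted permutation p of r under 0.05 for 3, the smallest 0.00366). The strongest was Ibsp with the T cell markers (r = -0.67, rho = -0.67, permutation p = 0.00366 and 0.00857, adjusted p = 0.154 and 0.18), and r was -0.62 without the 2 farthest libraries. Rps6ka6 with the T cell markers followed (r = -0.53, rho = -0.63, permutation, adjusted p = 0.378 and 0.18). Rps6-ps1 with Ldha had r = -0.01 (permutation p = 0.974).

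Last, the genes most like each member in this within-group variation were listed by r over the 19 libraries, among 12551 other tested genes whose mean log2 CPM was 1 or more. They describe these libraries, which share their depth and makeup. For Rps6ka6 they were Stau2 (r = 0.96), Macc1 (0.96) and Fnbp1l (0.95), and for Ibsp Cd99l2 (0.94), Fut8 (0.93) and Sgcb (0.92). For Gnao1 they were Plcg2 (0.89), Adamtsl3 (0.86) and Lrrc75b (0.86), for Myo5b Acap2 (0.89), Ncstn (0.87) and Asxl2 (0.86), and for Nptx1 Urah (0.85), Gm4735 (0.83) and Clic1 (0.83). Rps6-ps1 was closest to Chchd4 (0.82), Cmbl (0.81) and Pfkfb1 (0.79), and Tnip3, with the weakest likeness, to P2ry10 (0.76), Lap3 (0.76) and Fam49a (0.74). Of these 21, Adamtsl3, P2ry10 and Fam49a lay wholly above in LDHA-KD libraries, as their member did and as did 6.69% of all tested genes. Their line differences were 1.24 and 1.17 for Adamtsl3, 1.32 and 1.64 for P2ry10, and 1.05 and 0.94 for Fam49a. Clic1 lay wholly below (-0.70 and -0.84), opposite to Nptx1, as did 7.04% of all tested genes, and the rest overlapped. Nothing is read from so few genes.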

How the data were processed

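The authors deposited unnormalized read counts for 46983 genes in 19 libraries, and the submitters' processing notes name HTSeq 0.5.3, Picard 1.124 and build mm10, with no role for each. Aligner, annotation release and strand setting are not given in the sources used here. Libraries were poly(A) selected from 500 ng of RNA with a stranded kit and 8 PCR cycles, per the labels' protocols. The 5 summary lines stayed out of the totals, and records outside genes were 8.42% to 13.8%. Gene positions are those of GENCODE M21 (GRCm38, the same assembly as mm10), matched by identifier for 46488 of 46983 genes. Promoter windows are RefSeq's on GRCm38.p6; 4 of the 7 genes were used.

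Counts were fitted in R 4.3.3 with edgeR 4.0.16: filterByExpr on group (16763 genes), TMM factors, 1 coefficient per group over all 19 libraries, quasi-likelihood F tests, and Benjamini-Hochberg adjustment over all tested genes at 0.05. CPM used TMM-scaled totals. Alternatives were DESeq2 1.42.0, limma voom 3.58.1, other scaling and filtering, a replicate block and leaving out libraries. The fit was tested on simulated data. No pair of libraries within a group was a copy (lowest chi-square per gene 5.23).

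The members, the lists of relatives and the markers were chosen with earlier results of these data known. Named genes were all members, Ldha, listed paralogs, the 2 largest changes each way in each list past the threshold in both comparisons of the lines, the nearest tested neighbours on each side with the largest such change within 500 kb, and the 3 most alike genes. A neighbour that this rule names is not reported here. The other list genes named (Rps6-ps3, Rps6-ps4, Gnb4, Gng2, Runx2 and the marker genes) were chosen after their values were seen.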

Additional observations from a re-analysis of the deposited data

How the results depend on the processing

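Members were called in 0 treatment or interaction comparisons under each alternative run, and the line difference of each member kept its direction in all of them, between 5.71 and 6.53 for Rps6-ps1 and between -2.78 and -2.23 for Myo5b over all libraries left out in turn. Replicate numbers are shared by the groups, but same-numbered samples did not deviate together (r from -0.37 to 0.50, and 4 of 18 correlated best with their own number). With the replicate number as a block, the called relatives were 40 and 39 and the called neighbours 37 and 44 under IgG and anti-CTLA-4, near the 39, 39, 38 and 40 without it. Over all genes 5941 and 7144 were called with the block, against 5752 and 6711 without it. Leaving out 1 library at a time gave 33 to 40 and 32 to 40 relatives and 32 to 40 and 32 to 46 neighbours. Calls over all genes then ran from 4710 to 6023 and from 5813 to 7182. Without the 4 libraries that stood apart, 25 relatives and 25 neighbours were called under anti-CTLA-4, with fewer samples. Calls over all genes in that comparison also fell, from 6711 to 4308. A window of 250 kb left 19 and 21 called neighbours, with fewer genes tested. The number tested in that window is not given here, so nothing is read from these counts. The correlation of Ibsp with Rps6ka6 (settings chosen after seeing the data) was 0.72 without the 4 libraries, 0.66 in the control libraries alone, and 0.76 to 0.86 with each library left out.

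The results that changed sign were all short of the threshold, and the cause was not tested. Without scaling factors, which moved the median of all genes by up to 0.10, Tnip3 measured -0.02 for treatment in control tumours. Line differences under IgG became 0.06 for Rps6-ps4, 0.02 for Gnai2, 0.01 for Gnai3, 0.05 for Rps6ka3 and 0.02 for Rps6ka4. Under anti-CTLA-4 they became 0.06 for Gnai2, 0.03 for Gnai3, 0.03 for Nptxr, 0.01 for Rps6ka4, 0.06 for RP23-325H23.3 and 0.03 for Hdx. Without the 4 libraries, treatment gave 0.02 for Rps6-ps1 in LDHA-KD tumours and -0.05 for Tnip3 in control tumours, and the interaction was -0.05 for Gnao1 and 0.07 for Rps6ka6. Line differences under anti-CTLA-4 were then 0.03 for Rps6-ps3, -0.02 for Tnip1, -0.15 for Tnfaip3, 0.47 for RP23-325H23.3 and 0.02 for Cfap53.

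With each library left out, treatment ranged from -0.15 to 0.03 for Myo5b and -0.14 to 0.15 for Tnip3 in control tumours and from -0.02 to 0.18 for Nptx1 in LDHA-KD tumours. The interaction ranged from -0.18 to 0.36 for Gnao1, -0.52 to 0.01 for Rps6ka6 and -0.05 to 0.24 for Tnip3. Line differences under IgG ranged from -0.15 to 0.04 for Gnai2, -0.22 to 0.21 for Ndnf, -0.05 to 0.10 for Rps6-ps4, -0.02 to 0.13 for Rps6 and -0.13 to 0.08 for Rps6ka4. Under anti-CTLA-4 they ranged from -0.17 to 0.11 for Hdx, -0.14 to 0.02 for Nptxr, -0.39 to 0.15 for RP23-325H23.3 and -0.02 to 0.07 for Tnip1.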
